A study of Danio rerio with 9 samples.

Results

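The genes of oxidative phosphorylation were followed in whole eyes of wild-type zebrafish larvae at 3, 4 and 5 days post fertilization (dpf), the days in which the larval retina becomes functional. Members were chosen by gene symbol, not by their values. A probe set was taken when its single symbol in the platform annotation began with nduf (a, b, c, s or v), sdh (a to d), uqcr, cyc1, cycs, atp5, or cox followed by 4, 5, 6, 7, 8, 10, 11, 15 or 17. The rule found 99 probe sets for 91 genes, of 15502 probe sets tested and 8793 genes with a single symbol. There were 33 genes for subunits of complex I, 4 for complex II, 8 for complex III, 1 for cytochrome c, 14 for complex IV and 16 for complex V. Genes were grouped by symbol. The complex I counts therefore hold ndufa4a and ndufa4b, now counted with complex IV, and the complex IV counts hold cox7a2l, a factor that joins complexes III and IV. The symbols also took in 6 assembly factors of complex I, 3 of complex II and 4 of complex IV, and 2 inhibitors of complex V. Another 2 probe sets carried a member symbol together with a second symbol and were left out.

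RNA from dissected eyes was hybridized to 9 Affymetrix Zebrafish Genome Arrays, 3 for each age, and every value below is a log2 signal or a difference between log2 signals. All groups were wild type with no treatment named, so age is the only difference between groups that the labels give. The study describes only the 3 and 5 dpf arrays. In comparisons with 4 dpf, any difference in the handling of those arrays cannot be told apart from age. The 3 and 5 dpf arrays are described as biological replicates, while for 4 dpf the labels give only a replicate number, so a p-value at that age may measure technical spread only. Signal depends on the probes as well as on the RNA, so changes were compared between arrays. Where genes are ranked by signal, the rank describes their probe sets and not the amount of RNA.

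In oxidative phosphorylation, complexes I and II pass electrons from NADH and succinate to ubiquinone, complex III passes them on to cytochrome c, and complex IV passes them to oxygen. Complexes I, III and IV pump protons across the inner mitochondrial membrane, and complex V, the ATP synthase, uses the gradient to make ATP. Photoreceptors hold dense clusters of mitochondria next to their outer segments and are among the most energy-demanding cells of the body. All subunits considered here are encoded in the nucleus. Of the 13 subunits encoded in the mitochondrial genome, 0 had a probe set with a single symbol of their own.

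The tissue label was checked against markers. Of 15 photoreceptor genes listed, 11 were measured, and 0 of them had a mean signal under 5. Other tissues were also present. The 14 skeletal muscle genes measured had a log2 summed signal of 12.76 to 13.18 at 3 dpf, 9.97 to 10.26 at 4 dpf and 9.54 to 11.28 at 5 dpf, so the 3 dpf arrays lay above all others. The signal difference between the 3′ and 5′ ends of the GAPDH control was 2.4 to 2.9 on all 9 arrays. This difference reflects RNA integrity together with the 3′ bias of oligo-dT based amplification. The study states 2-cycle labelling for the 3 and 5 dpf RNA, so the value serves only to compare arrays. The acta1 control could not serve in this way, because its 5′ probe set lay at the bottom of the scale (0.83 to 0.95) on all arrays, and its difference of 6.78 to 11.2, largest at 3 dpf, was set by the 3′ signal. In whole eyes, fewer cells of a type and less RNA per cell cannot be told apart.

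The replicate 1 arrays stood apart for these genes. Replicate 1 gave the lowest signal of its age at all 3 ages for 61 of the 91 genes, or 67.0%, against 19.5% of all genes and 28.2% of the 1882 genes with a mean signal of at least 9. It gave the highest signal at all 3 ages for 2 members, ndufa4b and cox10, against 12.5% of all genes. Relative to the mean of its age, the median member lay at -0.15 on 3 dpf replicate 1, -0.27 on 4 dpf replicate 1 and -0.37 on 5 dpf replicate 1. On these arrays, 74, 83 and 84 of the 91 genes were below their age mean. The median of all genes stayed between -0.03 and 0.03 on every array, and that of the genes with a mean of at least 9 lay between -0.08 and 0.07. Among the other arrays, 5 dpf replicate 2 was the highest for its age, with a median deviation of 0.29.

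**Figure D1:**
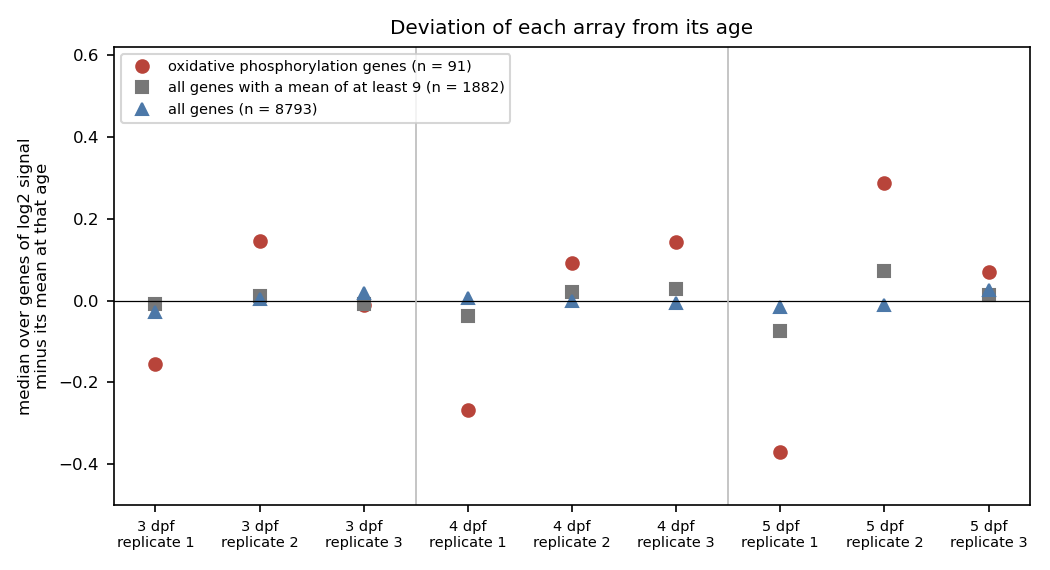
Median over genes of the log2 signal minus its mean at that age (vertical axis), for each of the 9 arrays (horizontal axis), for the 91 oxidative phosphorylation genes (red circles), the 1882 genes with a mean signal of at least 9 (grey squares) and all 8793 genes (blue triangles). The red circles are below the line on each replicate 1 array, at -0.15, -0.27 and -0.37, while the blue triangles stay between -0.03 and 0.03.

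The shared deviation ran through every complex. All 16 complex V genes were below their age mean on each of the replicate 1 arrays, as were 30, 31 and 31 of the 33 complex I genes at 3, 4 and 5 dpf. The median deviation on 5 dpf replicate 1 was -0.44 for complex I, -0.59 for complex II, -0.37 for complex III, -0.30 for complex IV and -0.32 for complex V. The assembly factors of complex IV did not share it at 3 dpf, where their median was 0.15 on replicate 1. In 10 members replicate 1 was the lowest array at no age, namely cox4i2, cox4i1l, cox10, cox11, cycsb, uqcrh, ndufa4b, ndufs8a, sdhaf4 and atp5if1b. These 10 were picked out after their values were seen.

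Some other lists were also low on these arrays. Markers of dividing retinal progenitors (9 measured) had median deviations of -0.17, -0.03 and -0.39 on the replicate 1 arrays of 3, 4 and 5 dpf, as low as the members at 3 and 5 dpf but not at 4 dpf. Assembly factors outside the symbol rule (16 measured) had -0.01, -0.03 and -0.24. Genes of mitochondrial import and cristae (23 measured) had -0.03, -0.04 and -0.14, and neurons (5 markers) had 0.14, 0.02 and 0.12. For skeletal muscle the values were 0.10, 0.01 and 0.64, for photoreceptors -0.04, 0.06 and 0.10, and for the single lens gene measured, cryaa, -0.47, -0.35 and -1.17. The 7 liver and pancreas genes had -0.76, 0.19 and -0.77. The part of these differences in tissue in the low member signals was not tested. The spread of the members between replicates had a larger median than that of all genes, with a median SD of 0.19, 0.24 and 0.36 at 3, 4 and 5 dpf (n = 3 each), against 0.15, 0.12 and 0.21 over all genes.

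**Figure D2:**
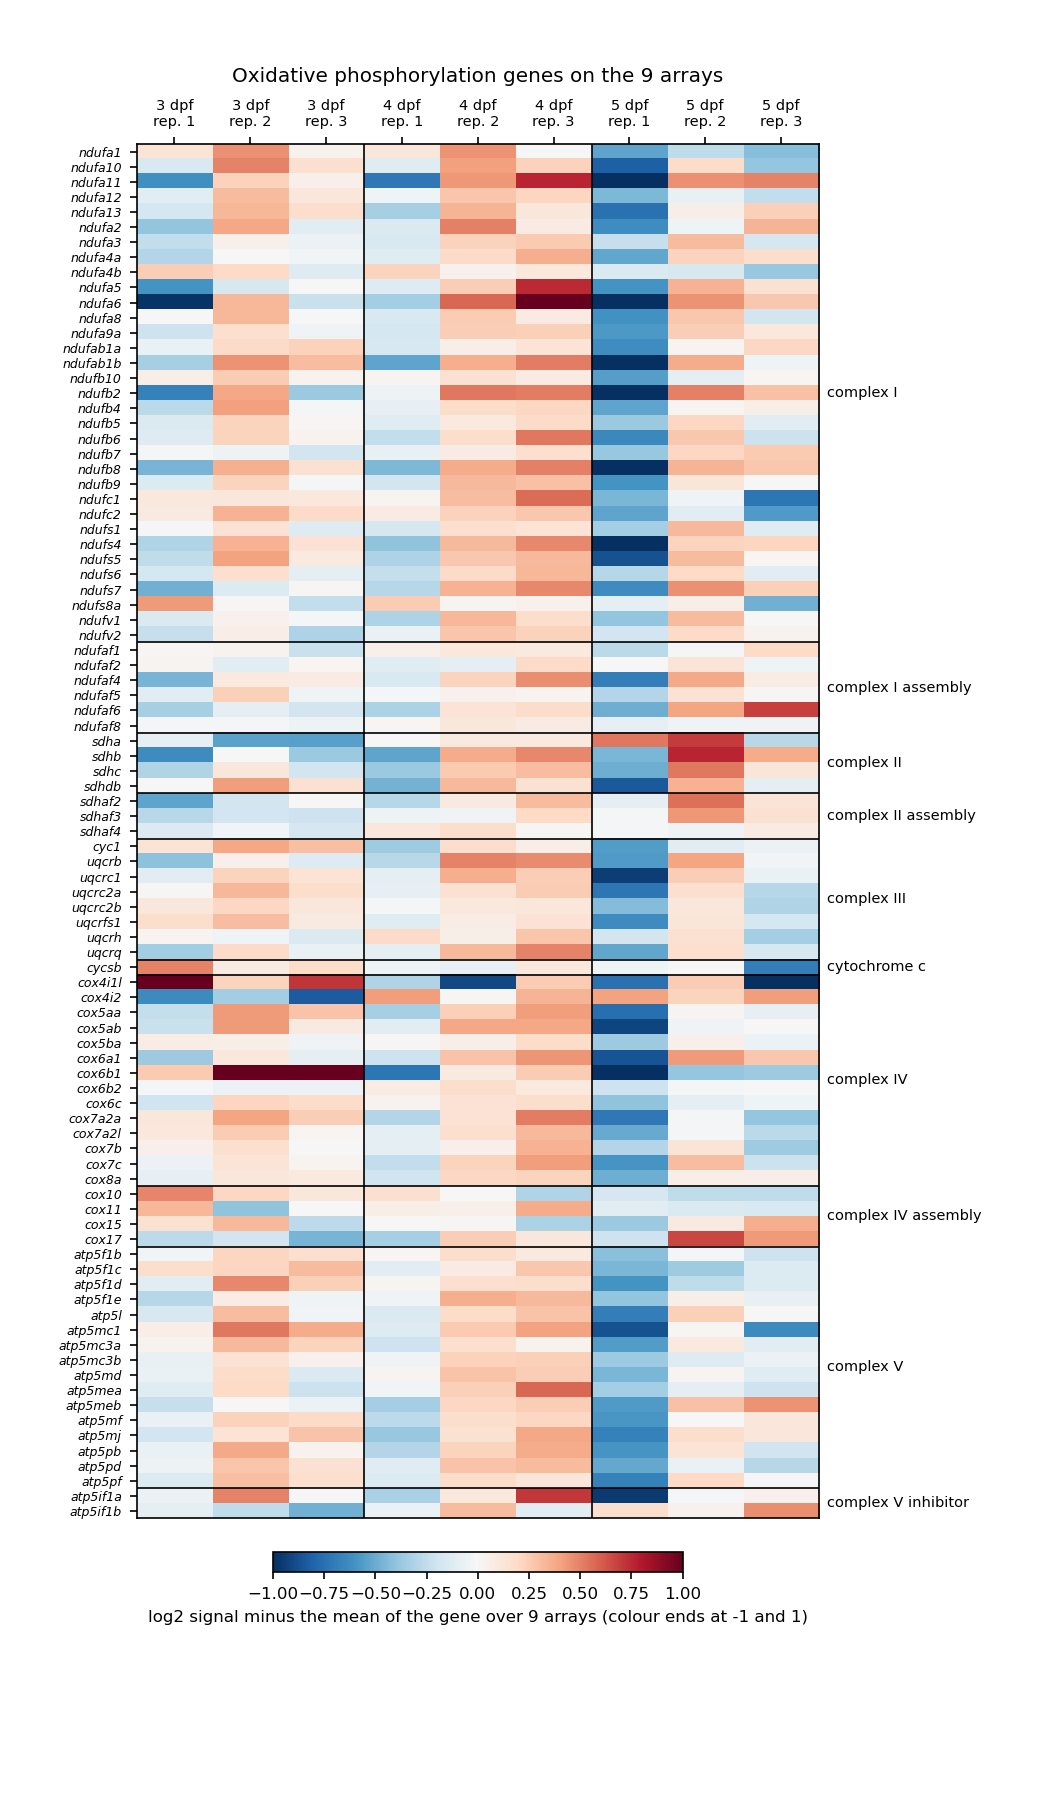
Log2 signal of each of the 91 genes (rows, grouped by complex) on each of the 9 arrays (columns), as the difference from the mean of the gene over the 9 arrays. Colours run from -1 (blue) to 1 (red) and values beyond these ends take the end colour, so that the 5 dpf replicate 1 column appears blue in most rows, and the rows of cox4i2 and cox6b1 run in opposite directions with age.

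Between 3 and 5 dpf, 3 of the 91 genes changed at an adjusted p under 0.05 (limma, 6 arrays). cox4i2 rose, and ndufa1 and atp5f1c fell. Signs here run from the younger to the older age, opposite to the 3 over 5 dpf ratios of the study. The 1 gene that rose is 1.1% of the members against a background of 5.57% of all genes, and the 2 that fell are 2.20% against 7.74%. With the further limit of a 2-fold change there were 0 members, against 6.39% of all genes, and at an unadjusted p under 0.05 there were 3 higher (background 18.5%) and 15 lower (background 17%). With the replicate number as a block in the same fit, 11 members passed, 1 higher (background 6.63%) and 10 lower (11% of the members, background 9.81%), with limma adjusted p from 0.0181 to 0.0497. These were the same 3 genes together with ndufa12, ndufc2, cox5aa, cox6b1, cox7a2a, cox10, atp5mc1 and atp5pd, all lower at 5 dpf, and the adjusted p given for each gene below is that without the block. Whether the numbers pair the arrays of these ages is not settled. The standard error of a member's change had a median of 0.22, against 0.16 over all genes.

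cox4i2 encodes an isoform of subunit 4 of cytochrome c oxidase, which in mammals is the form of lung and is induced by low oxygen. Its signal was 10.81, 11.10 and 10.62 on the 3 dpf arrays, 11.87, 11.46 and 11.78 at 4 dpf, and 11.85, 11.67 and 11.87 at 5 dpf. All arrays of 4 and 5 dpf lay above all arrays of 3 dpf, and the ages of 4 and 5 dpf overlapped. The change from 3 to 5 dpf was 0.95 ± 0.14 (SE, n = 3 and 3, limma adjusted p = 0.0179). Without 3 dpf replicate 1 it was 0.94 (limma adjusted p = 0.0573), and without 3 dpf replicate 3 it was 0.84 (limma adjusted p = 0.0599). With all replicate 1 arrays left out, a setting added after the data were seen, it was 0.91 (limma adjusted p = 0.0984).

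ndufa1 encodes a small membrane subunit of complex I that is needed for its assembly in mammals. Its signal was 10.16, 10.48 and 10.06 at 3 dpf, 10.14, 10.48 and 10.03 at 4 dpf, and 9.50, 9.77 and 9.60 at 5 dpf. Signals were alike at 3 and 4 dpf, and all 5 dpf arrays were lower than all others. The change from 3 to 5 dpf was -0.61 ± 0.14 (limma adjusted p = 0.0499). The call was lost whichever single array was left out, with an adjusted p of 0.0773 to 0.116 and a change of -0.49 to -0.70. Without the replicate 1 arrays the change was -0.59 (limma adjusted p = 0.162).

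atp5f1c encodes the gamma subunit, the central shaft that turns inside the ATP synthase head. Its signal was 12.44, 12.47 and 12.58 at 3 dpf, 12.16, 12.34 and 12.53 at 4 dpf, and 11.81, 11.91 and 12.12 at 5 dpf. The arrays of 3 and 5 dpf did not overlap, and those of 4 dpf lay between them and overlapped 3 dpf. The change from 3 to 5 dpf was -0.55 ± 0.10 (limma adjusted p = 0.0298). The call held without 5 dpf replicate 3 (adjusted p = 0.0270) and was lost when any of the other 5 arrays was left out, with an adjusted p of up to 0.111 and a change of -0.48 to -0.58. Without the replicate 1 arrays the change was -0.51 (limma adjusted p = 0.0942).

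**Figure D3:**
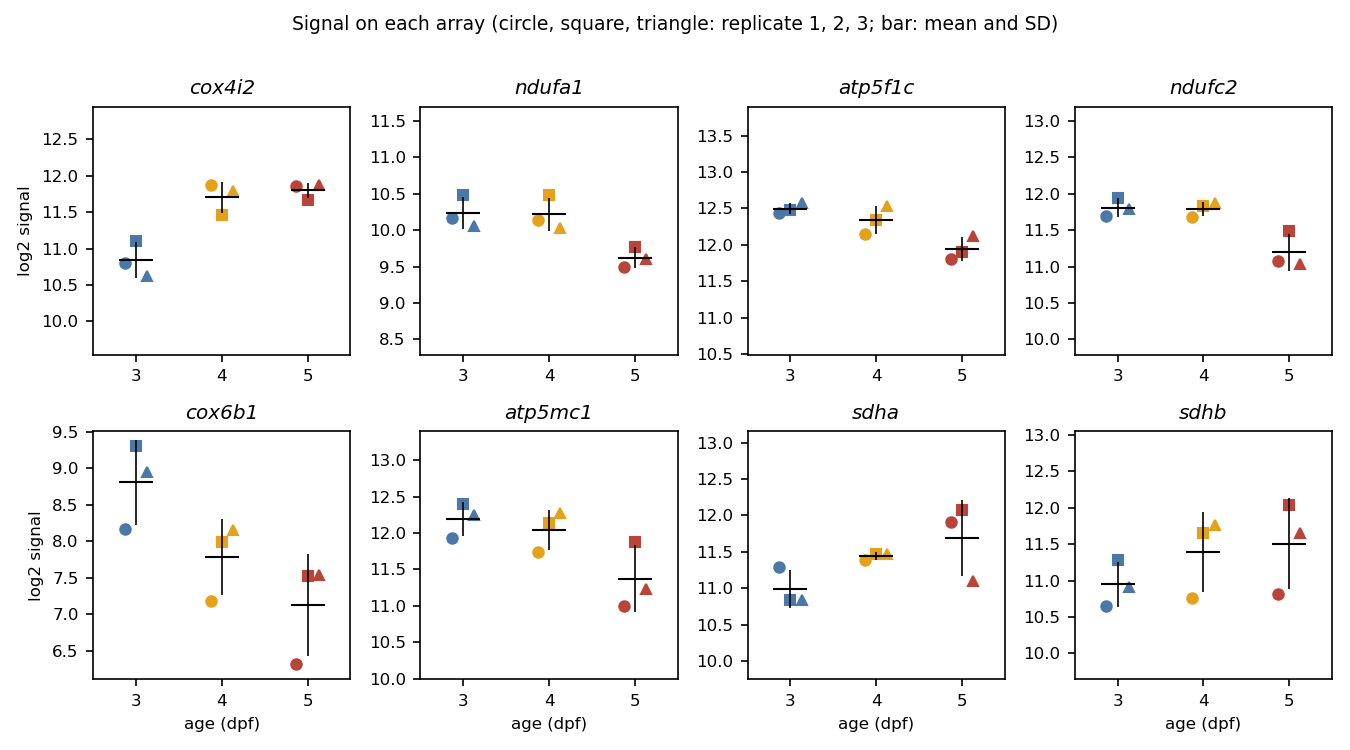
Log2 signal (vertical axis, each panel spanning the same range) of 8 genes by age in dpf (horizontal axis), with circles, squares and triangles for replicates 1, 2 and 3 and a bar for the mean with its SD (n = 3). cox4i2 is higher on all 4 and 5 dpf arrays than at 3 dpf. ndufa1 and ndufc2 are lower on all 5 dpf arrays than on any other array, and the circles of cox6b1, atp5mc1 and sdhb are the lowest of each age.

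Most members were lower at 5 dpf without passing the test one by one. The change from 3 to 5 dpf was negative for 65 of 91 genes (71.4%), against 44.0% of all genes and 57.2% of genes with a mean of at least 9. The median change was -0.19 for the members, 0.06 for all genes and -0.09 for genes with a mean of at least 9. The size of the shift depended on the replicate 1 arrays. Without 5 dpf replicate 1 alone, 44 of 91 were negative and the median was 0.01, against 41.4% negative and 0.06 for all genes. That setting keeps the low 3 dpf replicate 1 array. Without all replicate 1 arrays 57 were negative and the median was -0.06, against 42.2% negative and 0.06 for all genes. The arrays of 3 and 5 dpf did not overlap for 3 members that were higher at 5 dpf (background 32.7%) and for 16 that were lower (background 18.4%).

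Markers of other tissues moved over the same interval. Of 14 skeletal muscle genes, 8 fell from 3 to 5 dpf and 0 rose, with a median change of -2.50, and 4 of 6 cartilage genes fell. Of 7 liver and pancreas genes, 4 rose. Of 11 photoreceptor genes 3 rose and 0 fell, namely pde6c (0.90), pde6ha (2.87) and guca1b (2.05), which serve the light response of cones and rods. Of 9 markers of dividing progenitors 1 fell, with a median of -0.87. With the replicate number as a block 4 of these 9 fell. In a fit to all 9 arrays, 7 of them fell, while of the photoreceptor genes 4 rose and 1 fell (backgrounds 15.2% higher and 13.6% lower). The part of these shifts in the changes of the members was not tested.

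**Figure D4:**
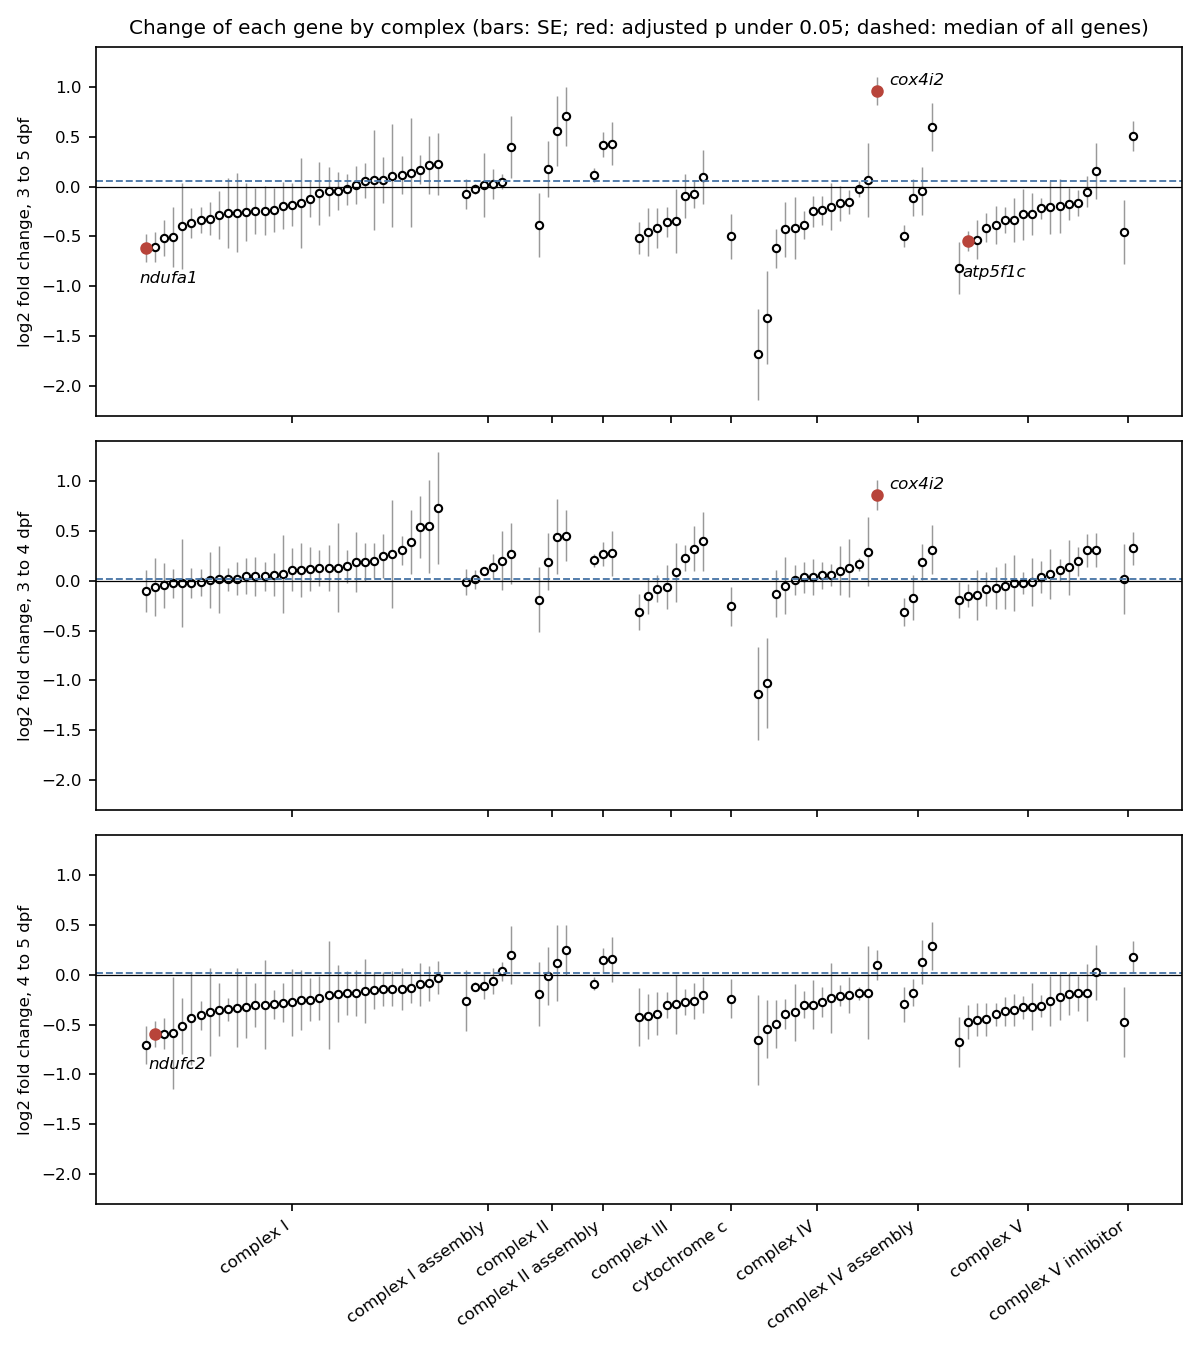
Log2 fold change of each gene with its standard error (vertical axis), grouped by complex and sorted within it (horizontal axis), from 3 to 5 dpf (top), 3 to 4 dpf (middle) and 4 to 5 dpf (bottom). Filled red points passed an adjusted p under 0.05 (cox4i2, ndufa1, atp5f1c and ndufc2) and the dashed line marks the median of all genes, at 0.06, 0.02 and 0.02, below which most points lie in the top and bottom panels.

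Complex I, which oxidizes NADH, had 23 of 33 negative changes from 3 to 5 dpf, a median of -0.18 and a range of -0.61 to 0.22. Over all genes 44.0% of changes were negative and 56.0% positive. The sign counts by complex, here and below, include 5 dpf replicate 1, on which 31 of the 33 complex I genes were below their age mean. Without that array 44 of all 91 members were negative, so these counts are not read as the behaviour of each complex. Besides ndufa1, ndufc2, a subunit of the membrane arm, had a change of -0.61 ± 0.15 (limma adjusted p = 0.0606). The subunits with the highest signals were close to level. ndufs1, the large iron-sulfur subunit of the peripheral arm, had -0.04 ± 0.19, and ndufa4a had 0.07 ± 0.23, while ndufa4b had -0.33 ± 0.13. NDUFA4 was first assigned to complex I and is now counted with complex IV. ndufab1a and ndufab1b, copies of the mitochondrial acyl carrier protein, had -0.25 ± 0.23 and -0.40 ± 0.43. Among the assembly factors, ndufaf6 had 0.40 ± 0.31, ndufaf5, which modifies a subunit of the peripheral arm, -0.08 ± 0.15 and ndufaf1 0.03 ± 0.15, and 0 of the 6 changed.

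Complex II is the succinate dehydrogenase, which also belongs to the citric acid cycle. Of its 4 genes 3 had positive changes, against 56.0% of all genes, and 0 passed the test, with a median of 0.37. sdha, the flavin subunit, had signals of 11.30, 10.84 and 10.83 at 3 dpf, 11.38, 11.48 and 11.47 at 4 dpf, and 11.90, 12.08 and 11.10 at 5 dpf. Replicate 3 of 5 dpf lay below the 4 dpf arrays and within the range of 3 dpf. The change was 0.70 ± 0.29 (limma adjusted p = 0.153), and without 5 dpf replicate 3 it was 1.00 (limma adjusted p = 0.0476). sdhb, the iron-sulfur subunit, had 0.56 ± 0.35 (adjusted p = 0.274), with replicate 1 the lowest array at each age. sdhc had 0.18 ± 0.28, and sdhdb had the negative change, -0.39 ± 0.32. All 3 complex II assembly factors had positive changes. sdhaf2, which helps attach the flavin to SDHA, had 0.43 ± 0.22, sdhaf3, which protects the iron-sulfur subunit, had 0.42 ± 0.12 (limma adjusted p = 0.0903), and sdhaf4, which binds free SDHA, had 0.12 ± 0.07.

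Of the 8 complex III genes 7 had negative changes, against 44.0% of all genes, with a median of -0.35, and 0 passed the test. cyc1, the cytochrome c1 that hands electrons to cytochrome c, had means of 11.41 ± 0.13, 11.10 ± 0.28 and 10.90 ± 0.27 at 3, 4 and 5 dpf (SD, n = 3) and a change of -0.52 ± 0.16 (limma adjusted p = 0.0931). Its arrays of 3 and 5 dpf did not overlap. The core proteins uqcrc2a and uqcrc2b had -0.45 ± 0.24 and -0.35 ± 0.15. uqcrfs1, the Rieske iron-sulfur protein, had -0.42 ± 0.20, and uqcrb, which contacts the ubiquinone site, had 0.10 ± 0.27. cycsb, the soluble cytochrome c measured, had -0.50 ± 0.22 (limma adjusted p = 0.170), with 11.70 on 5 dpf replicate 3 and 12.34 and 12.39 on the other 5 dpf arrays.

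Complex IV held the widest range of all groups, from -1.68 to 0.95, with 12 of 14 changes negative. cox6b1, a subunit on the outer face that joins the dimer, had signals of 8.17, 9.30 and 8.95 at 3 dpf, 7.18, 7.99 and 8.16 at 4 dpf, and 6.32, 7.52 and 7.54 at 5 dpf. Replicate 1 was the lowest array at each age, and the arrays of 3 and 5 dpf did not overlap. The change was -1.68 ± 0.45 (limma adjusted p = 0.0750), and without all replicate 1 arrays it was -1.60 (limma adjusted p = 0.0299), the only member called in that setting. cox4i1l, labelled as like subunit 4, had -1.31 ± 0.46 (limma adjusted p = 0.118). Its mean signal of 4.32 ± 0.65, 3.18 ± 0.58 and 3.00 ± 0.66 at 3, 4 and 5 dpf was near the bottom of the scale, and its values have little weight. The brightest subunit genes, cox6b2 and cox5ba, had -0.02 ± 0.08 and -0.15 ± 0.12. cox5aa and cox5ab had -0.43 ± 0.28 and -0.42 ± 0.31, cox7a2a had -0.62 ± 0.20, and cox7a2l, a factor that joins complexes III and IV, had -0.38 ± 0.14.

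Of the factors that build complex IV, cox10, which makes heme O, had 9.73, 9.45 and 9.35 at 3 dpf and 9.07, 8.99 and 8.99 at 5 dpf. These arrays did not overlap, and the change was -0.49 ± 0.11, just outside the limit (limma adjusted p = 0.0503). cox17, a copper chaperone, had 0.60 ± 0.24 (limma adjusted p = 0.144). Of the 4 factors 0 changed.

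Complex V had 15 of 16 negative changes, a median of -0.27 and a range of -0.82 to 0.16. atp5mc1, which encodes the membrane ring subunit c, had means of 12.19 ± 0.23, 12.05 ± 0.27 and 11.37 ± 0.46 at 3, 4 and 5 dpf and the most negative change, -0.82 ± 0.26 (limma adjusted p = 0.0995). The other copies of subunit c, atp5mc3a and atp5mc3b, had -0.38 ± 0.19 and -0.22 ± 0.11. The catalytic beta subunit, atp5f1b, had the highest signal of all members, with means of 13.96 ± 0.13, 13.94 ± 0.08 and 13.62 ± 0.20 and a change of -0.34 ± 0.13. Copies of subunit e, atp5mea and atp5meb, had -0.17 ± 0.13 and 0.16 ± 0.28, and atp5l, subunit g, had -0.19 ± 0.27. The inhibitors, which block ATP hydrolysis by the enzyme, ran in opposite directions, with 0.50 ± 0.15 for atp5if1b (limma adjusted p = 0.0904) and -0.46 ± 0.32 for atp5if1a.

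A fit to all 9 arrays, with a common estimate of the spread, called 2 members higher at 5 dpf (background 15.2%) and 6 lower (background 13.6%). These were the 3 genes above together with sdhaf3, which rose, and ndufc2, cox6b1, cox10 and atp5mc1, which fell. The estimated changes are the same in both fits, and the share of members called was below the background in both. With the replicate number as a block in the fit to 9 arrays, 3 members were higher (background 16.4%) and 18 lower (19.8% of the members, background 18.1%), a setting added after the data were seen.

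From 3 to 4 dpf, 1 member rose, against a background of 6.43% of genes, and 0 fell, against 7.27% (limma on 9 arrays, with 4 members at an unadjusted p under 0.05, against 29.4% of all genes). The gene was cox4i2, with 0.86 ± 0.15 (limma adjusted p = 0.0126), and without 4 dpf replicate 3 the change was 0.82 (limma adjusted p = 0.0533). It was 0.76 (limma adjusted p = 0.120) without the replicate 1 arrays. In all, 62 of 91 changes were positive and 29 negative, with a median of 0.07, against 46.9% negative and 0.02 for all genes. Without 4 dpf replicate 1 the median was 0.19 with 77 positive and 14 negative, against 45.5% negative for all genes. Without 3 dpf replicate 1 it was 0.02 with 47 positive and 44 negative, against 49.2% negative for all genes. The replicate number deviates together between the arrays of 3 and 4 dpf, and a fit blocked on that number called 2 members higher (background 8.21%) and 1 lower (background 9.09%). These were cox4i2 (limma adjusted p = 0.0262), atp5f1e, a small subunit of the ATP synthase shaft, with 0.30 (adjusted p = 0.0173), and cox6b1 with -1.03 (adjusted p = 0.00807). Skeletal muscle markers fell for 12 of 14 genes in this interval while cox4i2 rose. Photoreceptor markers rose for 4 of 11 genes and fell for 0, with a median of 0.45. The part of these markers in the changes of cox4i2 and the other members was not tested.

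From 4 to 5 dpf most members were lower, in a number that depended on 5 dpf replicate 1. The change was negative for 80 of 91 genes, or 87.9%, against 47.2% of all genes and 63.8% of those with a mean of at least 9, and for all 33 genes of complex I and all 8 of complex III. The median was -0.26, against 0.02 for all genes. Without 5 dpf replicate 1 it was -0.05 with 55 of 91 negative, against 43.4% negative and 0.03 for all genes. Without all replicate 1 arrays it was -0.15 with 77 negative, against 45.5% negative and 0.03 for all genes. By the test 0 members rose (background 4.66%) and 1 fell (background 3.17%), with 17 members at an unadjusted p under 0.05, against 23.5% of all genes, of which 8 were in complex V. With the replicate number as a block, 0 members were higher (background 4.28%) and 11 lower, which is 12.1% of the members against a background of 4.53%. These were ndufc2, ndufa1, ndufa10, ndufa12, cox5aa, cox6b1, atp5f1b, atp5f1c, atp5f1e, atp5mc3b and atp5pd. Over all probe sets, deviations of 4 dpf replicates 2 and 3 correlated with 5 dpf replicates 3 and 2 at 0.53 and 0.50. With their own numbers at 5 dpf the values were -0.07 and -0.03. The pairing of these ages is therefore not settled either, and the blocked count depends on it. The gene that fell without the block was ndufc2, with 11.69, 11.95 and 11.79 at 3 dpf, 11.68, 11.83 and 11.87 at 4 dpf, and 11.07, 11.49 and 11.03 at 5 dpf. The 5 dpf arrays lay below all others, the change was -0.59 ± 0.13 (limma adjusted p = 0.0391), and the call was lost when any single array of 4 or 5 dpf other than 5 dpf replicate 2 was left out, with an adjusted p of up to 0.140 and a change of -0.51 to -0.65. It was -0.59 (limma adjusted p = 0.162) without the replicate 1 arrays. Among the markers, the median change from 4 to 5 dpf was -0.28 for the 11 photoreceptor genes, of which 0 rose and 2 fell. For the 9 genes of dividing progenitors it was -0.56, and 1 fell. The medians were 0.31 for skeletal muscle and 2.32 for liver and pancreas. The part of these markers in the lower signals of the members was not tested.

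No member was off the line between 3 and 5 dpf at 4 dpf by the test. Against the mean of 3 and 5 dpf, 0 members were higher at 4 dpf (background 1.57%) and 0 lower (background 3.99%), with 9 at an unadjusted p under 0.05, against 17.3% of all genes (limma). How the 4 dpf arrays were handled and the age itself cannot be told apart, here or in the 3 to 4 and 4 to 5 dpf steps.

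Related gene copies were compared as the difference of their log2 signals on the same array. A deviation of an array drops out of the difference only where both copies share it in equal size. The slope of the difference with age was tested in 13 pairs by exact permutation of the 9 arrays over the ages (two-sided, 1680 assignments, smallest possible p 0.00119, p not adjusted over the pairs). The difference cox6b1 minus cox6b2 fell by 0.83 per day (exact p = 0.0107), from -4.46 ± 0.60 at 3 dpf to -5.65 ± 0.50 at 4 dpf and -6.12 ± 0.58 at 5 dpf (SD, n = 3). All 3 arrays of 3 dpf lay above all those of 5 dpf. The permutation takes no account of the replicate number. Since cox6b2 changed by -0.02 from 3 to 5 dpf, the difference largely repeats the fall of cox6b1, which did not pass the test (limma adjusted p = 0.0750). Replicate 1 was still the lowest array of this difference at each age, with -5.13 against -3.96 and -4.30 at 3 dpf, -6.21 against -5.50 and -5.25 at 4 dpf, and -6.79 against -5.79 on both others at 5 dpf. The difference cox4i1l minus cox4i2 had a slope of -1.13 per day, and of -0.68 with low signals raised to 4. Since cox4i1l lay near the bottom of the scale, no weight is put on that pair beyond the rise of cox4i2 given above.

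Other pairs moved by less. atp5mc1 fell relative to atp5mc3b by 0.30 per day (exact p = 0.0179) and relative to atp5mc3a by 0.22 per day (exact p = 0.0345), while the slope of atp5mc3a minus atp5mc3b was -0.08 per day (exact p = 0.255). atp5if1a fell relative to atp5if1b by 0.48 per day (exact p = 0.0440). The slope was -0.12 for cox7a2a and cox7a2l (exact p = 0.0810), 0.20 for ndufa4a and ndufa4b (exact p = 0.206) and -0.16 for atp5mea and atp5meb (exact p = 0.275). It was -0.01 for cox5aa and cox5ab (exact p = 0.930), -0.05 for uqcrc2a and uqcrc2b (exact p = 0.435) and 0.08 for ndufab1a and ndufab1b (exact p = 0.608). sdha and sdhb met the rule for pairs by their last letters but encode different subunits, and their slope was 0.07 (exact p = 0.762).

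**Figure D5:**
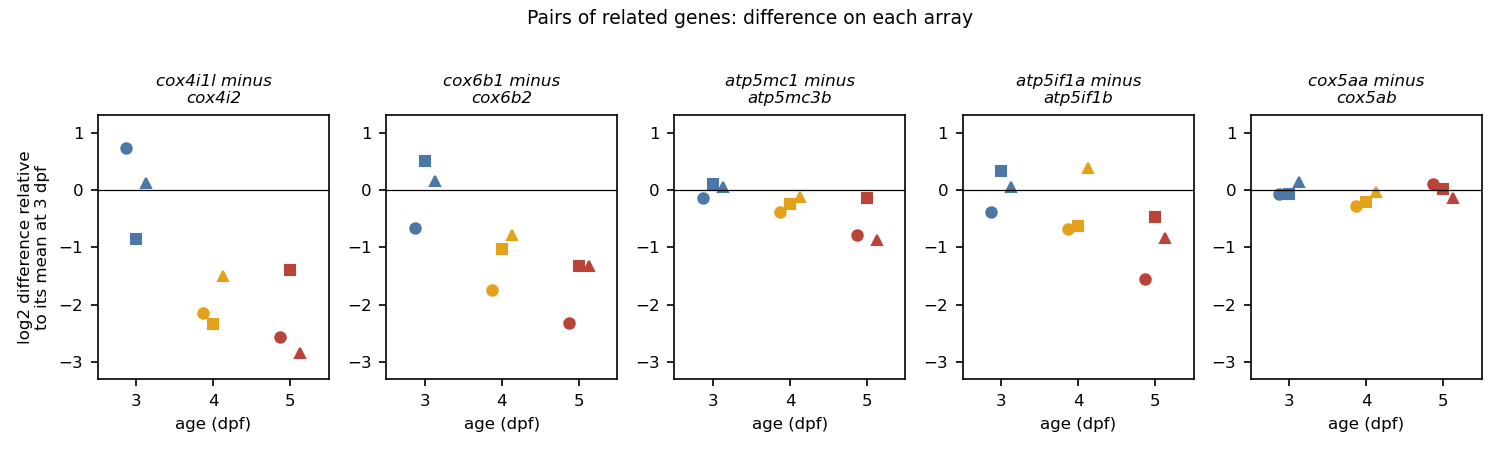
Difference of the log2 signals of 5 gene pairs on each array, relative to its mean at 3 dpf (vertical axis), by age in dpf (horizontal axis), with circles, squares and triangles for replicates 1, 2 and 3. The differences cox4i1l minus cox4i2 and cox6b1 minus cox6b2 are lower on every 4 and 5 dpf array than on any 3 dpf array, and cox5aa minus cox5ab stays near the line.

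Of the 91 genes, 7 had more than 1 probe set, and in 6 these differed in sign or in whether they passed the test. ndufab1a had 3 probe sets, all with negative changes from 4 to 5 dpf. Of these, 1 that was not the brightest passed the test (-0.33, limma adjusted p = 0.0409). The brightest had -0.14 (adjusted p = 0.718) and the third had -0.39 (adjusted p = 0.113). A dim second probe set of cox10, at 2.45 to 2.67, rose from 4 to 5 dpf (0.19, limma adjusted p = 0.0336) while the bright one had -0.18. Dim second probe sets of ndufb6, uqcrc2a and atp5l, all with a mean under 4, had changes from 3 to 5 dpf of 0.29, 0.12 and 0.35, against -0.24, -0.45 and -0.19 on the bright ones. For ndufaf1 the copies had 0.03 and -0.19. In all, 6 probe sets and 2 genes, cox4i1l and ndufaf8, had a mean under 5.

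Genes outside the symbol rule that act with these complexes were counted from lists. Of 16 assembly factors measured, 0 changed from 3 to 5 dpf (limma), with a median of 0.13. Of 16 regulators of mitochondrial gene expression, 7 had a mean signal under 5, where changes are poorly measured. Among the 16, tfb2m, a factor of mitochondrial transcription, rose (0.50, limma adjusted p = 0.0352). nrf1, a transcription factor for respiratory genes, fell (-0.55, limma adjusted p = 0.0426), and the median of the 16 was 0.00. Of 23 genes of mitochondrial import and cristae, 2 fell and 0 rose, with a median of -0.27. These were phb2b, a prohibitin of the inner membrane (-1.36, limma adjusted p = 0.00747), and timm13, a small import chaperone (-0.51, limma adjusted p = 0.0353). Of 19 carriers, channels and energy-transfer genes 1 fell, the muscle creatine kinase ckmb (-2.42, limma adjusted p = 0.0332), which is also on the muscle list. Over all genes 5.57% rose and 7.74% fell, and with so few genes in each list these counts are not read as a change of the lists.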

How the data were processed

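Affymetrix Zebrafish Genome Arrays were hybridized with RNA from dissected eyes of larvae at 3, 4 and 5 dpf. The deposited values are log2 signals, 1 per original probe set, made by the authors with GCRMA background correction, normalization and summary. The version, and whether all 9 arrays were normalized together, are not given in the sources used here. GCRMA can compress dim signals, so changes of dim genes are poorly measured.

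Groups were taken from the sample titles. Linear models with moderated variances were fitted by limma 3.58.1 in R 4.3.3, with 115 control probe sets left out and Benjamini-Hochberg adjustment over the 15502 others. The 3 to 5 dpf comparison used the 6 arrays of these ages, as in the study, and the others used all 9 arrays. The study applied limma to remapped probe sets, while the original probe sets were used here. Changed means an adjusted p under 0.05. Named members were those changed, the 2 with the largest change and the 2 with the highest signal in each complex, copies of related genes, and genes with probe sets that disagree. The background is the share of 8793 genes called, each by its probe set with the highest mean. Gene names are those of the platform annotation (10802 probe sets with 1 symbol, 135 with several, 4680 with none), and all 91 members keep their symbol in RefSeq. The study discarded probes that matched several places in the genome, and such probes were not removed here. Whether each probe set matches its gene uniquely was not checked here, which also limits the comparison of related gene copies.

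The members, lists and tests were chosen with earlier results of these data known. Deviations of same-numbered arrays correlated over all probe sets at 0.60, 0.50 and 0.44 between 3 and 4 dpf, so the blocked count is given for that step, although the labels do not say what the number stands for. Alternatives were other normalization, centring, floors, filters, eBayes settings, sets of arrays, and leaving out arrays. The test script was tested on simulated data with noise independent between arrays and added changes larger than those of most members. The simulation held no deviation shared by arrays of the same number, so it gives no assurance on that point. Precision is limited by 3 arrays for each age.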

Additional observations from a re-analysis of the deposited data

How the results depend on the processing

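The count of members changed from 3 to 5 dpf (3) was 5 after quantile normalization, 1 with low signals raised to 4, 6 with trend and robust eBayes settings, 8 with all 9 arrays, 1 without the replicate 1 arrays (added after the data were seen), and 0 with a 2-fold limit. With 1 array left out it ran from 0 to 5. The count from 3 to 4 dpf (1) was 0 with a 2-fold limit, and ran from 0 to 1 with 1 array left out. The count from 4 to 5 dpf (1) was 2 after quantile normalization, and 0 after median centring, with low signals raised to 4, with a mean of at least 5, with the 6 arrays of these ages, without the replicate 1 arrays or with a 2-fold limit. With 1 array left out it ran from 0 to 5. The causes were not tested. Of the 91 genes, 2 had a mean signal under 5, where changes are poorly measured. The median change of the members ran from -0.29 (without 5 dpf replicate 2) through -0.12 (without 3 dpf replicate 2) to 0.01 (without 5 dpf replicate 1) from 3 to 5 dpf, from 0.01 (without 4 dpf replicate 3) through 0.04 (without 4 dpf replicate 2) and 0.15 (without 3 dpf replicate 2) to 0.19 (without 4 dpf replicate 1) from 3 to 4 dpf, and from -0.39 (without 5 dpf replicate 2) through -0.17 (without 4 dpf replicate 3) to -0.05 (without 5 dpf replicate 1) from 4 to 5 dpf. Its sign changed in the 3 to 5 dpf step without 5 dpf replicate 1 and in no other of its settings. The paralog slopes kept their sign with low signals raised to 4 and with 6 arrays, where the exact test can reach no p under 0.10.

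With the replicate number as a block, the count was 11 from 3 to 5 dpf (1 higher, 10 lower, backgrounds 6.63% and 9.81%), and 21 in a fit to all 9 arrays (3 higher, 18 lower, backgrounds 16.4% and 18.1%), with all 3 genes of the unblocked fit in both. It was 3 from 3 to 4 dpf, 7 there in a block fit to those 6 arrays alone (5 higher, 2 lower, backgrounds 11.6% and 12.6%), and 11 from 4 to 5 dpf (all lower, background 4.53%). Over all probe sets, same-numbered arrays of 3 and 5 dpf correlated at 0.54, 0.01 and 0.04, and of 4 and 5 dpf at 0.72, -0.07 and -0.03. Over the members the values were 0.76, 0.25 and 0.31, and 0.81, 0.15 and 0.18. Numbers 2 and 3 of 4 dpf went with the opposite number at 5 dpf. Replicate 2 of 4 dpf correlated with 5 dpf replicate 3 at 0.53 over all probe sets and 0.54 over the members. For 4 dpf replicate 3 and 5 dpf replicate 2 the values were 0.50 and 0.63. Over the members, 3 dpf replicate 2 was also closer to 5 dpf replicate 3 (0.61) than to its own number. The pairing with 5 dpf is therefore not settled. The block in 9 arrays for 3 to 5 dpf and in 6 arrays for 3 to 4 dpf was added after the deviations were seen.

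Of the named genes, 10 that had not changed took the opposite sign from 3 to 5 dpf in some settings. With 1 array left out, the change ran from -0.387 to 0.078 for atp5l, -0.038 to 0.469 for atp5meb, -0.062 to 0.045 for cox6b2, -0.064 to 0.306 for ndufa4a, -0.710 to 0.026 for ndufab1b, -0.090 to 0.146 for ndufaf1, -0.170 to 0.048 for ndufaf5, -0.229 to 0.104 for ndufs1 and -0.133 to 0.345 for uqcrb. Quantile normalization gave 0.021 for cox6b2 and -0.0029 for ndufaf1, and median centring gave 0.00080 for cox6b2. Without the replicate 1 arrays the change was 0.057 for cox6b2 and 0.095 for ndufs1. The mean of all probe sets gave 0.080 for atp5l, -0.082 for ndufaf1 and 0.023 for ndufb6.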
